A study of Homo sapiens with 12 samples.

Results

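The transcripts described here encode the machinery that brings newly made proteins into or across the membrane of the endoplasmic reticulum (ER). The 37 genes were listed by name, not by their measured values, and fall into 9 groups: the signal recognition particle (SRP), the SRP receptor, the SEC61 channel, the SEC62-SEC63 pair, the translocon-associated protein complex (TRAP), signal peptidase, the TRAM proteins, the ER membrane protein complex (EMC), and the factors that insert tail-anchored proteins. Of these, 36 genes were found among the 23292 gene symbols measured, and EMC6 was not analysed here. The cells were HEK293T, a human embryonic kidney line (named HEK293 in the growth label), with no genetic change. They were treated for 6 h with DMSO vehicle (Veh) or with 10 µM of AA263, AA263yne, or AA263-5. AA263 was studied as an activator of ATF6 signaling, and the other compounds are its analogs. There were 4 groups of 3 RNA samples, 12 in total. The labels do not say whether the samples of a group came from separate cultures, so the errors below may cover technical spread only.

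Most secreted and membrane proteins reach the ER while they are still being translated. SRP binds the signal sequence as it leaves the ribosome, the SRP receptor docks the ribosome at the ER, and the chain passes through or sideways out of the SEC61 channel, where TRAP, TRAM and signal peptidase act on it. Proteins that these routes serve poorly enter by SEC62 and SEC63, by the EMC, or, for proteins with a single anchor at their end, by BAG6 and its partners. When unfolded proteins build up, the unfolded protein response (UPR) raises the transcription of ER genes through the factors ATF6, XBP1s and ATF4, and translocation genes are among the known targets of XBP1s.

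Promoter sequences are shown first for genes on which the results turn: SSR1, SSR3, SEC63 and SRPRB, which were higher with each compound, and SSR4, which was not. All 5 were picked because they hold the letters described next, and not every gene that was higher does. Capitals mark GCCACGT or its reverse complement, the core of an ER stress motif bound by XBP1s. The sequences are from RefSeq, build GRCh38.p14, and are written 5′ to 3′ on the strand of the gene. For SSR1, SSR3 and SEC63, they hold the bases before the start site that lie outside every annotated exon of the gene. For SRPRB and SSR4, where the letters lie in an exon of another transcript of the same gene, 30 bases around them are shown.

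SSR1, chr6:7313232-7313449, minus strand: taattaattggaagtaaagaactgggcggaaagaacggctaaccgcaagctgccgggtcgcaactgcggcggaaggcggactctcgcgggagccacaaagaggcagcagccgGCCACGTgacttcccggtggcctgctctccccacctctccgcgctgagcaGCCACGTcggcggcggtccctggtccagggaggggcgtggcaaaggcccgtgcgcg
SSR3, chr3:156555150-156555367, minus strand: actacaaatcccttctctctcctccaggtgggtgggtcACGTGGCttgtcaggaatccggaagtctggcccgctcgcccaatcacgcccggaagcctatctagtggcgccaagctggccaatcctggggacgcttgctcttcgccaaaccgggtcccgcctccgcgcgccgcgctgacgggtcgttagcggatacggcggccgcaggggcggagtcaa
SEC63, chr6:107958209-107958458, minus strand: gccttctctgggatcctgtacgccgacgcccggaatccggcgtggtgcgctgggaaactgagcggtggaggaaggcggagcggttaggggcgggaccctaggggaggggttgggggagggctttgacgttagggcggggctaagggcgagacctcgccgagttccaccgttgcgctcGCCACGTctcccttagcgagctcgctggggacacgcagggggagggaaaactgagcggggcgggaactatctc
SRPRB, chr3:133805785-133805814, plus strand: ccgcgcctgcgcagagtgcaggGCCACGTc
SSR4, chrX:153794526-153794555, plus strand: gctcagggagggGCCACGTcagtgctgcca

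RefSeq promoter windows, reaching from 250 bases before a start site to 50 bases after it, were at hand for 33 of the 37 genes. All windows were searched on both strands for 4 motifs. GCCACGT was present for 8 of the 33 genes (24.2%): SRP19, SRPRB, SEC63, SSR1, SSR3, SSR4, SPCS2, and SEC11C. Of the 8 genes higher with all 3 compounds, SRPRB, SEC63, SSR1 and SSR3 hold it, SRP68, SEC61A1 and SSR2 have a window without it, and TRAM1 has no window. SSR4 and SPCS2 hold it and were called with no compound. Over all 27305 genes with a window, the share was 3.95%, and over all 35116 windows it was 3.22%. This background was not limited to genes expressed in these cells, so the sets compared are unlike. The UPR element TGACGTGG was present for SRP19, SEC62, SSR3, and SSR4 (12.1% of the 33 genes, against 0.927% of all genes and 0.729% of windows). In SRP19, SSR3 and SSR4, it overlaps a GCCACGT. The ER stress element (ERSE) bound by ATF6, CCAAT and CCACG separated by any 9 bases, was present for 0 of the 33 genes and for 0.0916% of all genes, HSPA5 among them. ERSE-II, ATTGG and CCACG separated by any 1 base, was present for 0 of the 33 and for 0.0696% of all genes, HYOU1 among them. These matches describe the letters in these windows, and binding was not measured. GCCACGT also holds the CCACG of the ERSE, so the letters alone do not tell sites of XBP1s from sites of ATF6.

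**Figure D1:**
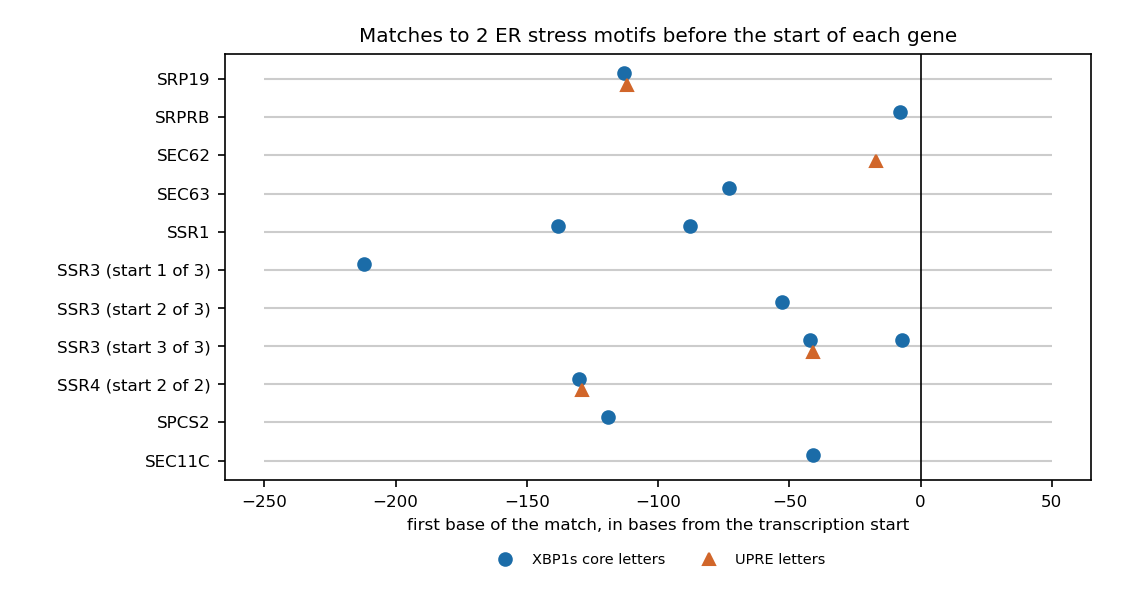
Place of each match in the promoter windows of the 9 genes that hold one, in bases from the transcription start (grey lines span the window, from 250 bases before to 50 bases after the start). Circles mark GCCACGT and triangles TGACGTGG on either strand. SSR1 has a pair of circles, and SSR3 has matches at each of its 3 start sites.

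The deposited tables hold, gene by gene, the mean of the normalized values, the log2 fold change of each compound over Veh with its standard error (SE), and its p-value. Single samples and their depth were not analysed here. The SE is therefore the measure of precision, and group levels are those implied by the mean and the fold changes. An adjusted p-value was given for 12002 genes with AA263 and AA263yne and for 13355 genes with AA263-5, and for all 36 translocation genes with each compound. The 36 genes had mean values between 351 and 24649 (median 2616), SEs between 0.06 and 0.24 on the log2 scale, and made up 0.436% of the summed means. Markers of this kidney line were present (VIM 18797, NEFM 3786, KRT8 1488, and KRT18 2230), although PAX2 was low at 27.7. Means of the blood and liver markers PTPRC, CD3E, ALB and APOA1 were 0.544, 0.488, 1.3 and 4.79. HSPA5 (BiP), the ER chaperone that pulls chains through the channel and a standard readout of ER stress signaling, rose with AA263, AA263yne and AA263-5 by 1.71, 2.30 and 2.18 in log2.

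To see how the pathway responded to each compound, its genes were counted as higher or lower at an adjusted p-value under 0.05. With AA263, 10 of the 36 genes rose and 0 fell, where 4.07% of all genes tested rose and 4.02% fell. AA263yne raised 14 and lowered 0, against 5.61% and 4.46% of all genes. AA263-5 raised 15 and lowered 2, against 8.69% and 10.1% of all genes. At an unadjusted p-value under 0.05 in the same DESeq2 fit, 1 gene was lower with AA263 (SSR4) and 2 with AA263yne (SRP9 and SSR4), where 10.1% and 11.8% of all genes tested were lower. With AA263-5, 3 were lower (SSR4, EMC8 and BAG6), where 2099 of 13355 genes tested were. By this measure 16, 15 and 16 genes were higher with AA263, AA263yne and AA263-5, where 1346, 1630 and 2062 of all genes tested were. The changes were small. A rise of more than 1.5-fold was called for 0 genes with AA263, for SRPRB, SEC63, SSR1 and SSR3 with AA263yne, and for SSR1, SSR3 and EMC2 with AA263-5, against 0.775%, 1.25% and 1.26% of all genes tested. The median log2 fold change of the 36 genes was 0.24 with each compound, against 0.02 over all genes tested. With the trend of fold changes on GC content, described below, removed from all genes, the medians of the 36 genes were 0.14, 0.15 and 0.13 for AA263, AA263yne and AA263-5. The number of the 36 genes with a log2 fold change above 0 was 26, 28 and 25 for AA263, AA263yne and AA263-5 (72.2%, 77.8% and 69.4%), against 53.1%, 52.7% and 52% of all genes tested.

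All 3 compounds were compared with the same Veh samples, so their lists are not independent of each other. SRP68, SRPRB, SEC61A1, SEC63, SSR1, SSR2, SSR3, and TRAM1 were higher with all 3 compounds. The share of all genes higher with all 3 is not given here, so this overlap has no background beside it. SRP54, SEC62, SPCS3, SEC11C, EMC3, and CAMLG were higher with 2 of them, and SRP19, EMC2, and EMC7 with 1. EMC8 and BAG6 were called lower with AA263-5, though the difference of these values from those of the other compounds did not pass the adjusted test. The other 17 genes were called with none. The study's own list of IRE1/XBP1s target genes holds 5 of the 36: SEC61A1, SRP19, SRPRB, SSR1, and SSR3. Of these 5, 4, 5 and 4 rose with AA263, AA263yne and AA263-5. Of the 31 genes outside that list, 6, 9 and 11 rose and 0, 0 and 2 fell, with medians of 0.18, 0.11 and 0.21 in log2. Among all genes tested, 4.07%, 5.61% and 8.69% rose and 4.02%, 4.46% and 10.1% fell.

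**Figure D2:**
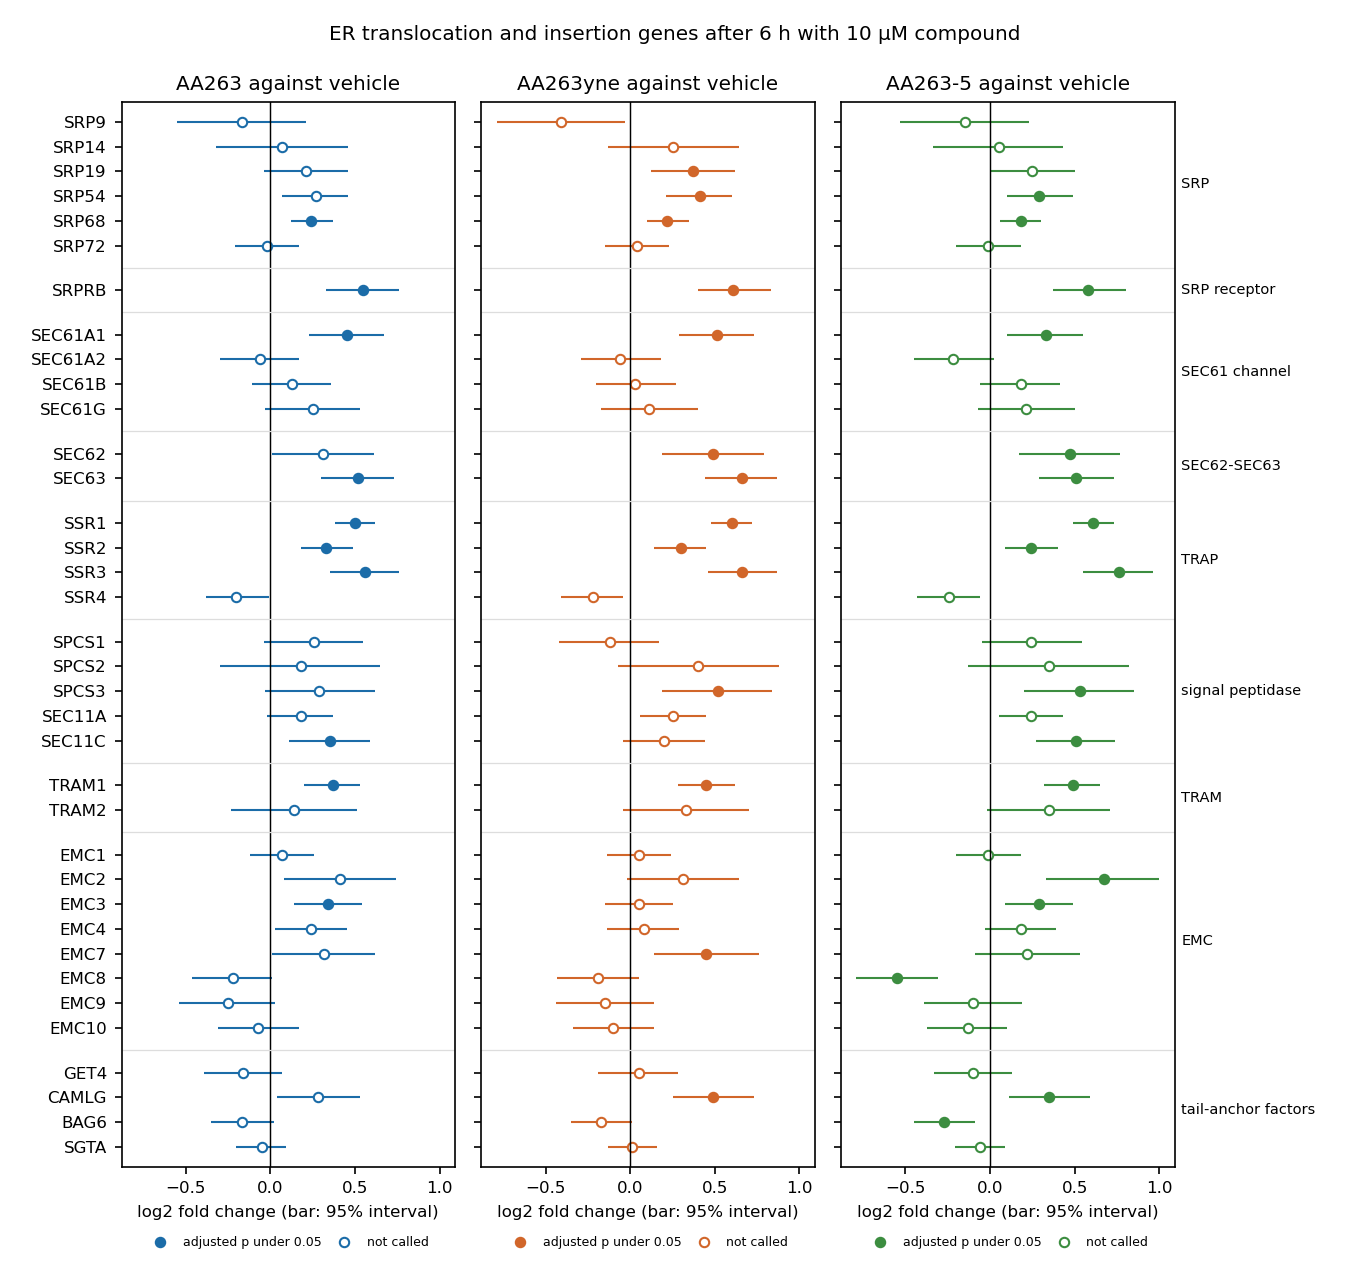
Log2 fold change of each of the 36 genes over vehicle (x axis), one panel per compound, with genes in rows grouped by complex. Points are the deposited estimates from 3 samples per group, bars their 95% intervals, and filled points have an adjusted p-value under 0.05. Filled points lie to the right of 0 in all panels except EMC8 and BAG6 with AA263-5.

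Of the 6 SRP subunits, which capture the chain as it is made, 1 rose with AA263, 3 with AA263yne, and 2 with AA263-5. The shares of all genes tested that rose were 4.07%, 5.61% and 8.69%. SRP68, which with SRP72 forms part of the signal-binding end of the particle, was at 8291 in Veh and at 9813, 9689 and 9408 with AA263, AA263yne and AA263-5. Its log2 fold changes of 0.24, 0.22 and 0.18 (SE 0.06 each) had adjusted p-values of 0.0038, 0.00795 and 0.0244, and were 0.17, 0.15 and 0.11 and not called with the GC trend removed. The partner SRP72 stayed at 9566 in Veh and between 9464 and 9849 with the compounds, and was not called. SRP54, the subunit that binds the signal sequence, was at 2025 in Veh and 2438, 2685 and 2480 with the compounds, and rose by 0.41 with AA263yne (SE 0.10, adjusted p = 0.00175) and by 0.29 with AA263-5 (SE 0.10, adjusted p = 0.0221). Without the GC trend its values were 0.28 (adjusted p = 0.071) and 0.11 (adjusted p = 0.561). SRP19, needed to assemble the particle, rose with AA263yne by 0.37 (SE 0.13, adjusted p = 0.043), or 0.25 without the GC trend (adjusted p = 0.277). SRP9 and SRP14, the pair that slows translation, were not called, with log2 fold changes between -0.41 and 0.25 and SEs of 0.19 and 0.20.

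SRPRB, the membrane-spanning subunit of the SRP receptor, had higher fold changes than any of the 6 SRP subunits. Its level was 2047 in Veh and 2988, 3129 and 3069 with AA263, AA263yne and AA263-5. These are folds of 1.46, 1.53 and 1.5, with adjusted p-values of 5.92e-05, 3.02e-06 and 5.66e-06. SRPRA, the other receptor subunit and not one of the 37 genes, had log2 fold changes of 0.49, 0.53 and 0.50 (SE 0.06, adjusted p-values of 1.16e-14, 3.78e-17 and 4.21e-15). Both receptor subunits were therefore higher with each compound.

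In the SEC61 channel, the main pore subunit was called and the other 3 subunits were not. SEC61A1 was at 16155 in Veh and 22040, 22953 and 20244 with AA263, AA263yne and AA263-5, log2 fold changes of 0.45, 0.51 and 0.33 (SE 0.11, adjusted p-values of 0.00316, 0.000491 and 0.0267). Its paralog SEC61A2, a rarer pore subunit, was at 1192 in Veh and between 1026 and 1147 with the compounds. The small subunits SEC61B and SEC61G had log2 fold changes between 0.03 and 0.25, with SEs of 0.12 and 0.14, and were not called.

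SEC63, the membrane protein whose J domain recruits BiP to the channel, was at 3208 in Veh and 4587, 5061 and 4570 with the compounds. Its log2 fold changes were 0.52, 0.66 and 0.51 (SE 0.11), with adjusted p-values of 0.000237, 4.95e-07 and 0.000136. SEC62, its partner, rose with AA263yne (0.49, SE 0.15, adjusted p = 0.0214) and AA263-5 (0.47, adjusted p = 0.0171), and had a value of 0.31 with AA263 (adjusted p = 0.222). Its values with AA263yne and AA263-5 became 0.34 and 0.26 without the GC trend and were not called (adjusted p-values of 0.188 and 0.299).

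The TRAP subunits, which help weak signal sequences open the channel, split. SSR3 (TRAP gamma) was at 2675 in Veh and 3934, 4238 and 4518 with AA263, AA263yne and AA263-5, the highest fold changes among the 36 genes with AA263 and AA263-5 (1.47- and 1.69-fold). SSR1 (TRAP alpha) was at 6173 in Veh and 8717, 9369 and 9420 with the compounds. With an SE of 0.06, its log2 fold changes of 0.50, 0.60 and 0.61 had the lowest adjusted p-values of the 36 genes (6.03e-13, 3.53e-19, and 1.11e-19). SSR2 (TRAP beta) rose less, from 10322 to 13018, 12664 and 12225, or 0.33, 0.30 and 0.24 in log2 (SE 0.08).

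SSR4 (TRAP delta) was at 7320 in Veh and 6387, 6270 and 6192 with the compounds. Its log2 fold changes were -0.20, -0.22 and -0.24, and its adjusted p-values of 0.199, 0.113 and 0.0562 missed the threshold. With fold changes centred on the median of all genes, the value for SSR4 with AA263-5 was -0.27 (adjusted p = 0.0296). With the GC trend removed, its values were -0.09, -0.08 and -0.06 with AA263, AA263yne and AA263-5 (adjusted p-values of 0.736, 0.716 and 0.778). Before the GC trend was removed, the 95% intervals of SSR4 (-0.43 to -0.06 with AA263-5) did not reach those of SSR1, SSR2 or SSR3 with any compound. With the trend removed, SSR2 was at 0.24 (SE 0.08) and SSR4 at -0.06 (SE 0.09) with AA263-5. Those values lie closer together, and the separation was not checked for them. SSR4 has the highest GC content of the 4 subunits at 59%, and SSR3 the lowest at 39.1%.

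Signal peptidase cuts the signal sequence from the chain. Of its subunits, SEC11C, a catalytic subunit, was at 1322 in Veh and 1687, 1518 and 1876 with AA263, AA263yne and AA263-5. It rose by 0.35 with AA263 (SE 0.12, adjusted p = 0.0495) and by 0.51 with AA263-5 (adjusted p = 0.000752). The call with AA263 was lost without the GC trend (0.29, adjusted p = 0.157). The other catalytic subunit SEC11A had values of 0.18, 0.25 and 0.24 and was not called. SPCS3 rose with AA263yne (0.52, SE 0.17, adjusted p = 0.027) and AA263-5 (0.53, adjusted p = 0.0127) from an implied Veh level of 298. Without the GC trend these were 0.36 and 0.32 and not called (adjusted p-values of 0.203 and 0.228). SPCS1 and SPCS2 were called with none. TRAM1, which contacts chains as they enter the membrane, was at 5129 in Veh and 6617, 7006 and 7184 with the compounds, log2 fold changes of 0.37, 0.45 and 0.49 (SE 0.09, adjusted p-values of 0.000939, 1.63e-05 and 1.16e-06). Its value with AA263 was 0.26 without the GC trend (adjusted p = 0.0553). TRAM2 was at 308 in Veh, with SEs of 0.19, and was not called.

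The EMC, which inserts membrane segments, showed no common direction among the 8 subunits measured. EMC2 was at 605 in Veh and 804, 749 and 959 with the compounds, and rose with AA263-5 (0.67, SE 0.17, adjusted p = 0.00149). EMC3, the subunit that carries the insertase fold, rose by 0.34 with AA263 (SE 0.10, adjusted p = 0.0187) and by 0.29 with AA263-5 (adjusted p = 0.0261), and its value with AA263yne was 0.05. EMC7 rose with AA263yne (0.45, SE 0.16, adjusted p = 0.0445). None of these 3 genes was called without the GC trend, where EMC2 with AA263-5 was 0.45 (adjusted p = 0.0601), EMC3 was 0.27 with AA263 and 0.18 with AA263-5 (adjusted p-values of 0.1 and 0.264), and EMC7 with AA263yne was 0.38 (adjusted p = 0.141). EMC8 fell with AA263-5 by 0.55 on the log2 scale (SE 0.12, adjusted p = 0.000219), from 2702 in Veh to 1847, and was at 2313 and 2363 with AA263 and AA263yne. EMC1, EMC4, EMC9, and EMC10 were not called, with log2 fold changes between -0.25 and 0.24. The EMC medians were 0.15, 0.05 and 0.09.

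Of the tail-anchor factors, CAMLG, part of the ER receptor for this route, was at 829 in Veh and 1008, 1165 and 1057 with the compounds. It rose with AA263yne (0.49, SE 0.12, adjusted p = 0.00279) and AA263-5 (0.35, adjusted p = 0.0298). Without the GC trend these values were 0.36 (adjusted p = 0.0542) and 0.20 (adjusted p = 0.339). BAG6, the cytosolic chaperone scaffold, was at 27290 in Veh and fell with AA263-5 to 22661 (a change of -0.27, SE 0.09, adjusted p = 0.0259). This call was lost with the GC trend removed (-0.09, adjusted p = 0.645). GET4 and SGTA, which work with BAG6, had log2 fold changes between -0.16 and 0.05 and were not called.

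**Figure D3:**
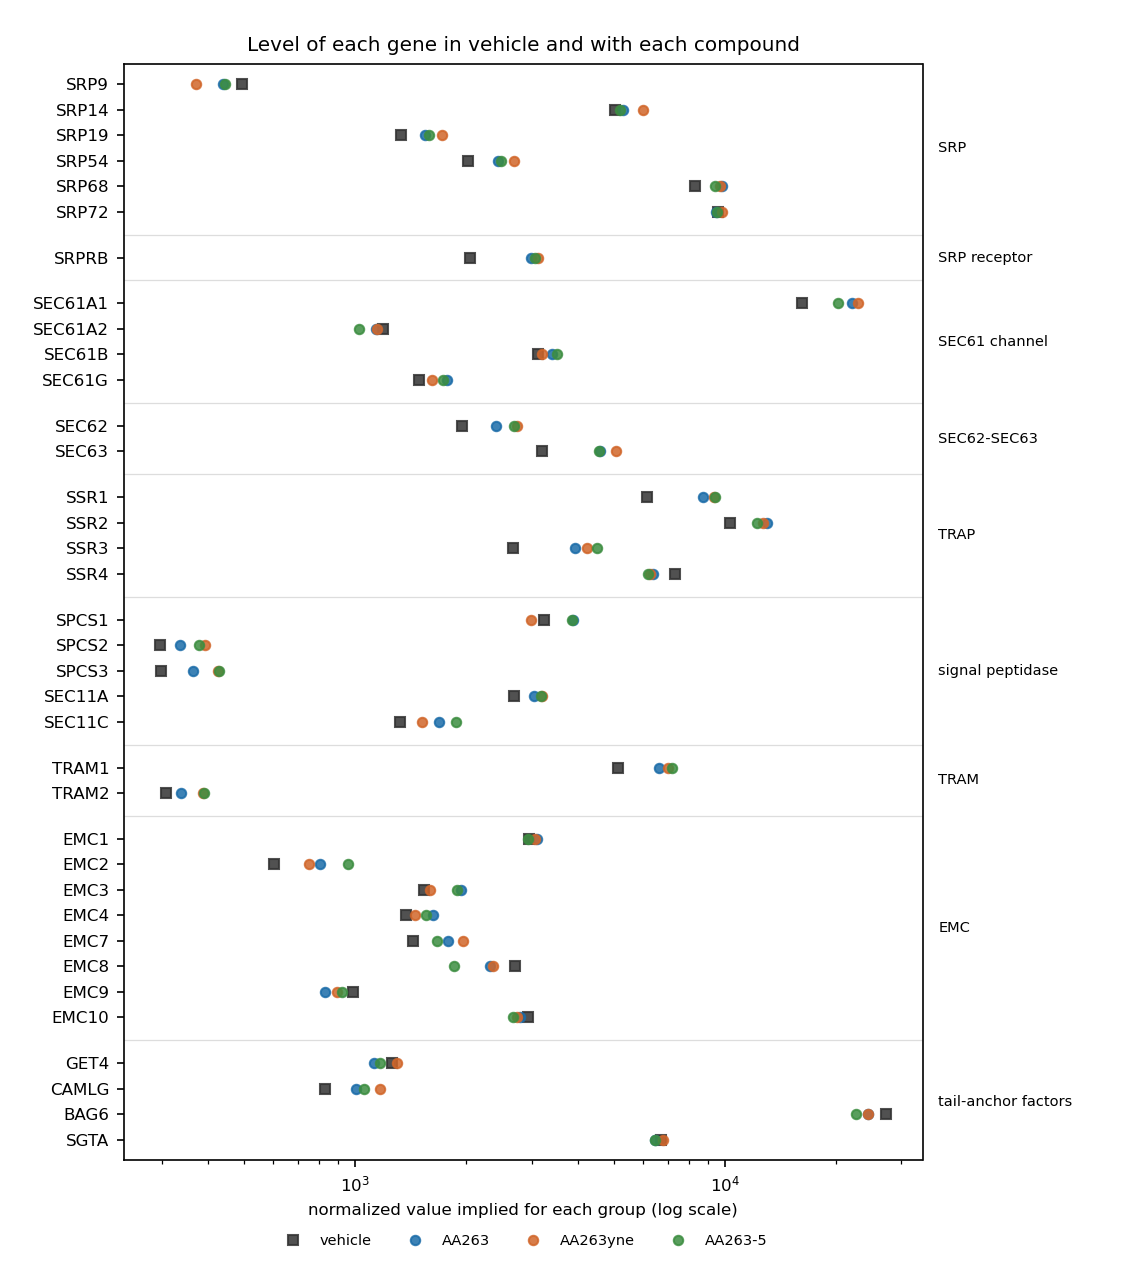
Normalized level implied for each of the 36 genes in vehicle (squares) and with each compound (circles), on a log axis, with genes grouped by complex. No error is drawn, because values for single samples were not used. The circles of SRPRB, SEC61A1, SEC63, SSR1, SSR2, SSR3 and TRAM1 lie to the right of their squares, and those of SSR4, EMC8 and BAG6 to the left.

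Levels of different genes were compared only per kilobase of the canonical transcript, as a description. In Veh, SSR4 had the highest level per kilobase (12040), followed by SSR2 (9315), BAG6 (7101), SEC61B (5527), and SEC61A1 (4528). The TRAP subunits SSR1 and SSR3 were at 639 and 632 per kilobase. TRAM2 (43.7), SPCS3 (65.1), and SPCS2 (110) were the lowest. The value of a gene with long noncoding ends, such as SSR1, depends on which transcript is taken as its length. If the deposited values were already scaled by length, as RPKM would be, this order does not hold, and the undivided level of BAG6 (27290) was above that of SSR4 (7320).

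Since the compounds were given at 1 dose and 1 time, they were also compared with each other, in 3 pairs. None of the 36 genes differed between any pair at an adjusted p-value under 0.05, and of all 15630 genes tested, 0.0768% differed between AA263yne and AA263, 0.154% between AA263-5 and AA263, and 0.128% between AA263-5 and AA263yne. The lowest adjusted p-values among the 36 genes were 0.617, 0.439 and 0.302. At an unadjusted p-value under 0.05, 2, 1 and 5 genes differed, where 5.22%, 6.59% and 7.72% of all genes did. The 95% intervals of the differences lay within 1.5-fold for 33, 34 and 31 of the 36 genes, and the rest do not exclude a larger difference.

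The genes with an unadjusted p-value under 0.05 were SPCS1, SEC11C, EMC2, EMC3, and EMC8, and none of their differences passed after adjustment. For SPCS1, the difference was -0.38 for AA263yne minus AA263 (interval -0.67 to -0.08, adjusted p = 0.76) and 0.37 for AA263-5 minus AA263yne (interval 0.07 to 0.66, adjusted p = 0.444). The values of EMC3 were -0.28 (adjusted p = 0.617) and 0.24 (adjusted p = 0.465) for the same pairs. For AA263-5 minus AA263yne, SEC11C had a difference of 0.31 (adjusted p = 0.419) and EMC2 of 0.36 (adjusted p = 0.589). EMC8 had differences of -0.32 for AA263-5 minus AA263 (interval -0.56 to -0.09, adjusted p = 0.439) and -0.36 for AA263-5 minus AA263yne (interval -0.60 to -0.12, adjusted p = 0.302). For SSR1 the intervals were narrow. Its difference was 0.10 for AA263yne minus AA263 (interval -0.02 to 0.23), 0.11 for AA263-5 minus AA263 (interval -0.01 to 0.23), and 0.01 for AA263-5 minus AA263yne (interval -0.11 to 0.13). By the same test, HSPA5 was 0.59 and 0.47 higher in log2 with AA263yne and AA263-5 than with AA263 (adjusted p-values of 9.95e-08 and 0.000135).

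**Figure D4:**
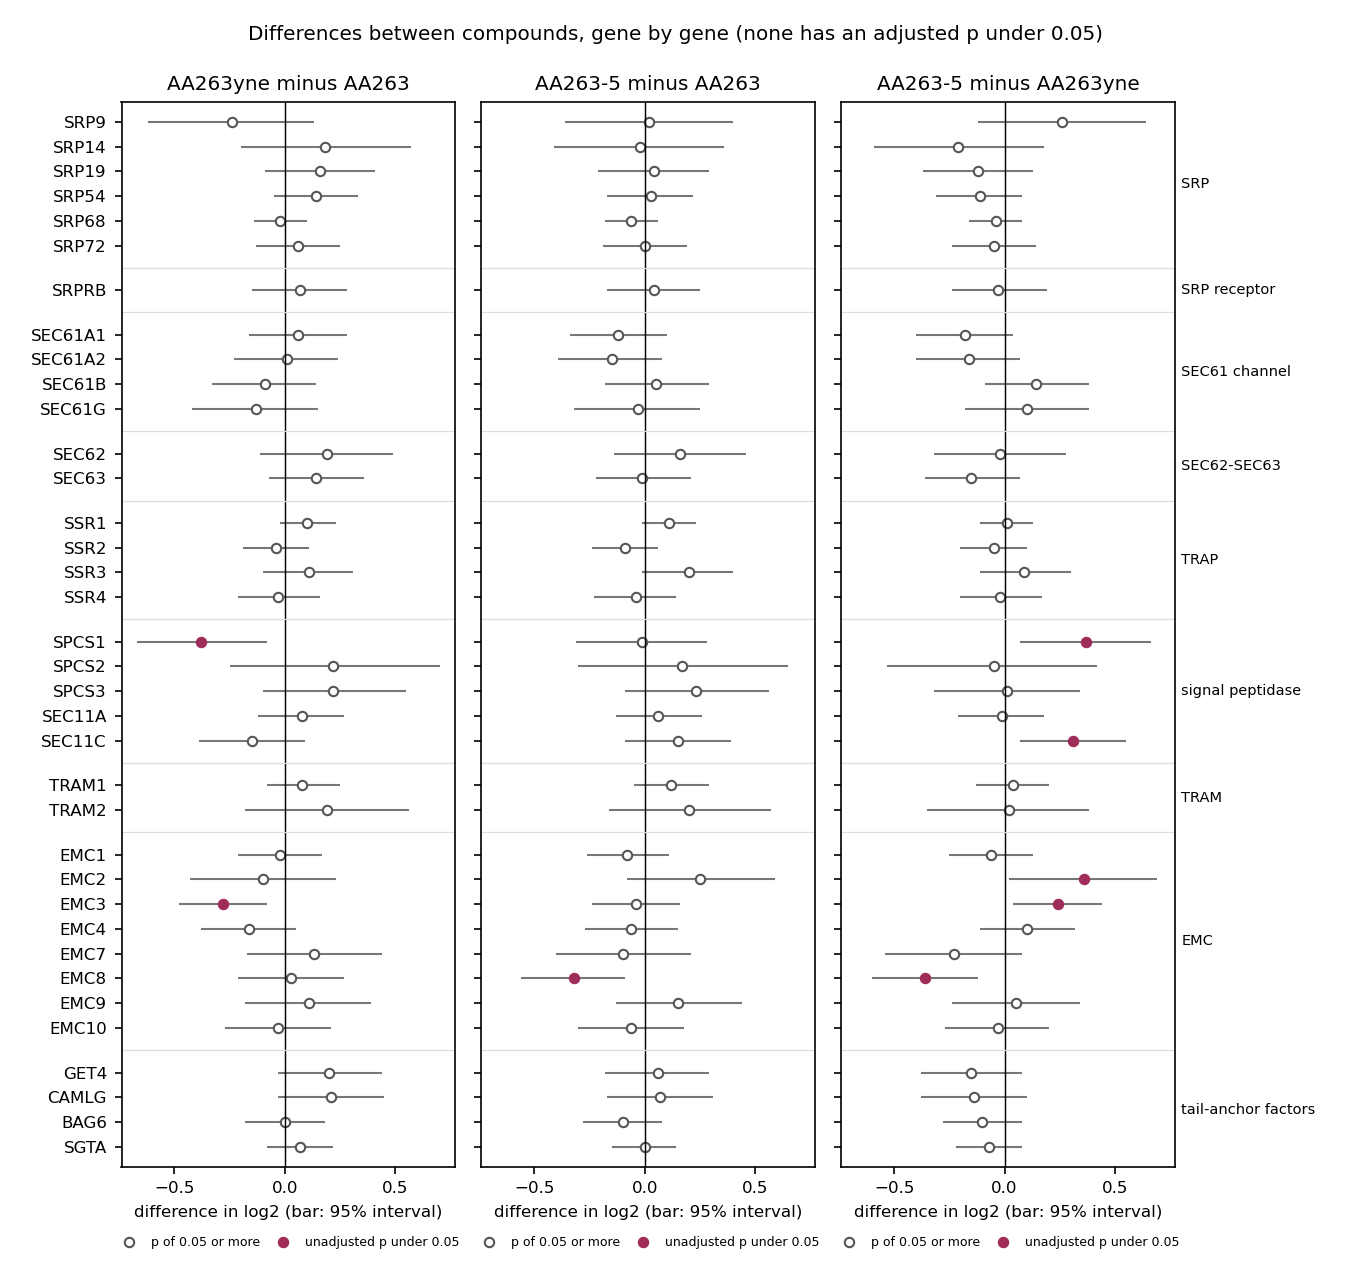
Difference in log2 between each pair of compounds (x axis), one panel per pair, for each of the 36 genes grouped by complex. Bars are 95% intervals, and filled points have an unadjusted p-value under 0.05. The filled points are SPCS1, SEC11C, EMC2, EMC3 and EMC8, and no gene has an adjusted p-value under 0.05.

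Base composition moved with the fold changes. Across the 36 genes, log2 fold change and transcript GC content had Spearman's rho of -0.45, -0.45 and -0.55 for AA263, AA263yne and AA263-5 (Pearson's r -0.56, -0.46 and -0.60). Across the 10704 genes with a mean of at least 100 and a transcript match, rho was -0.41, -0.48 and -0.53. Genes are not independent replicates, and all points of a compound come from the same libraries. The median GC content was 43.6% for the 8 genes higher with all 3 compounds and 55.6% for the 7 genes with values below 0 with all 3 compounds (SRP9, SEC61A2, SSR4, EMC8, EMC9, EMC10, and BAG6), against 48.1% for those 10704 genes.

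With the trend on GC content removed, 6, 7 and 8 of the 36 genes were higher with AA263, AA263yne and AA263-5. Over the 10988, 10988 and 11968 genes tested that have a GC value, 2.47%, 3.53% and 4.97% rose with the trend removed, against 4.16%, 5.78% and 9.12% of the same genes before. SRPRB, SEC61A1, SEC63, SSR1, SSR2, and SSR3 were each still higher with all 3 compounds. The calls of SRP19, SRP54, SRP68, SEC62, SPCS3, EMC2, EMC3, EMC7, and CAMLG were lost, as were those of SEC11C and TRAM1 with AA263. Some of these values moved little, such as EMC7 with AA263yne (0.45 before and 0.38 after) and SEC11C with AA263 (0.35 before and 0.29 after). EMC8 remained lower with AA263-5, at -0.54, whereas BAG6 was not called and SEC61A2 was called lower at -0.34 (adjusted p = 0.0422). Whether GC content has a part in any of these changes was not tested.

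**Figure D5:**
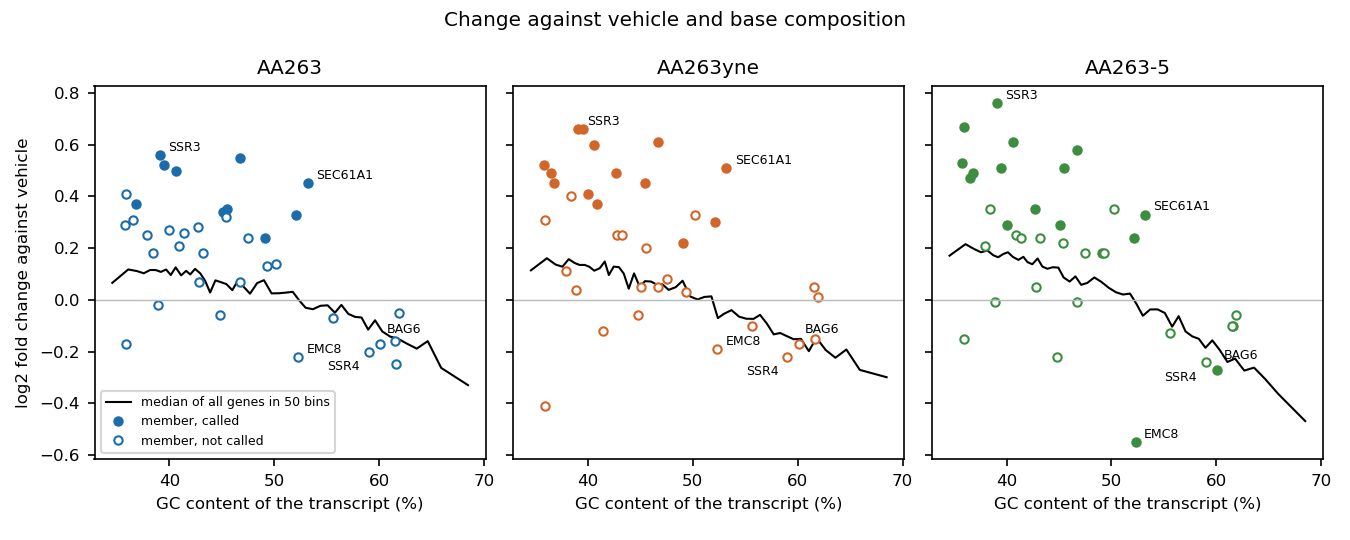
GC content of the canonical transcript (x axis) and log2 fold change over vehicle (y axis) for the 36 genes, one panel per compound. Filled circles have an adjusted p-value under 0.05, and the black line is the median of all genes in 50 bins of GC content. SEC61A1 lies above the line with each compound at a GC content of 53.2%, and SSR4 and BAG6 lie near it.

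Other genes of the pathway were counted from a list of 24 further targeting, insertion and quality-control factors, of which 23 had an adjusted p-value. Of the 24, 8, 5 and 4 rose and 1, 1 and 2 fell with AA263, AA263yne and AA263-5, with median log2 fold changes of 0.19, 0.15 and 0.12. Of all genes tested, 4.07%, 5.61% and 8.69% rose and 4.02%, 4.46% and 10.1% fell. The 8 rises with AA263 include NOMO1, NOMO2 and NOMO3, near-identical copies that can share reads. Without them, 5, 5 and 4 of 21 genes rose. SRPRA, CCDC47, HYOU1 and HSPA5 rose with all 3 compounds. CCDC47, a partner of the channel for multipass proteins, had values of 0.43, 0.58 and 0.59 (SE 0.13). HYOU1, an ER chaperone that acts on BiP, had values of 0.81, 1.15 and 1.09 (SE 0.05), and was higher by 0.34 with AA263yne and 0.28 with AA263-5 than with AA263 (adjusted p-values of 7.88e-07 and 0.000467). UBL4A, a partner of BAG6 and GET4 in the tail-anchor route, fell with all 3 compounds, at -0.40, -0.50 and -0.38 (SE 0.13). The rises of NOMO1, NOMO2 and NOMO3 with AA263 (0.22, 0.17 and 0.22) are uncertain for the reason given. Values with the GC trend removed are not given here for these 24 genes, so their calls lack that check.

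Oligosaccharyltransferase adds glycans to chains as they leave the channel. Of its 12 subunits listed, 5 rose and 0 fell with each compound, against the same shares of all genes tested (4.07%, 5.61% and 8.69% higher). STT3A and STT3B, the catalytic subunits, had log2 fold changes of 0.37, 0.35 and 0.35 and of 0.50, 0.61 and 0.60 with AA263, AA263yne and AA263-5. RPN1 (0.33, 0.38 and 0.40) and RPN2 (0.24, 0.22 and 0.19) also rose with all 3 compounds. The median over the 12 subunits was 0.22, 0.20 and 0.19. These values, too, are not given here with the GC trend removed.

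Some of these values may include reads from other loci. Pseudogene copies are annotated for SRP9, SRP14, SRP68, SRP72, SEC61G, SEC63, SSR1, SSR4, and SPCS2. Exons of SRP19, SRPRB, SSR1, EMC3 and GET4 overlap those of another gene on the same strand, and 23 of the 36 genes overlap one on the other strand. The libraries were strand-specific per the labels, but whether strand was used in counting is not given in the sources used here.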

How the data were processed

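RNA of HEK293T cells was sequenced from 3 samples in each of 4 groups. The authors aligned paired-end reads to GRCh38.p7 with DNAstar SeqManPro, quantified them in ArrayStar (QSeq), and fitted DESeq2 to compare the compounds with vehicle (version 1.40.1 in the submitters' processing notes, which list GRCh38 and GRCh37). Annotation and filters are not given in the sources used here. The methods state that RPKM entered this fit, but the deposited means sum to 36.6 M.

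Only the authors' comparison columns hold values here, and they were used as measurements. Each deposited signal is the mean of the authors' normalized values over all samples. The deposited log2 values are fold changes over vehicle and their standard errors. The deposited score is the Wald statistic. The deposited p-values are those of that statistic, with and without Benjamini-Hochberg adjustment. Genes called at an adjusted p-value under 0.05 were counted. Group levels were set so that the mean of the 4 group levels equals the signal.

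Differences between compounds were divided by the root mean square of both standard errors, which takes the shared vehicle samples into account, and normal two-sided p-values were adjusted over 15630 genes with a mean of at least 10. This step was checked on simulated data with normal errors of the same size in each group. It was not checked for unequal spread or for counts. Transcript GC content, length, overlaps and pseudogenes came from GENCODE 44 on GRCh38, and the GC trend is the median in 50 bins. Matched by symbol, GC values were found for 36 of the 36 genes and 91.9% of the genes with a mean of at least 100. Promoters came from RefSeq (GRCh38.p14). Python 3.11.15, pandas 2.3.3, scipy 1.17.1 and statsmodels 0.14.6 were used.

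The genes, lists, motifs and tests were chosen with earlier results of these data known. All listed genes are reported, and of other pathway genes those called with all 3 compounds or between compounds, HSPA5 and the marker genes, of which 1 is not reported here. NOMO1, NOMO2, NOMO3 and the examples of motif windows were added after their values were seen. Alternatives were other sets for the adjustment, a 1.5-fold minimum, centring, removal of the GC trend, other errors for differences, and leaving out weakly measured genes or the IRE1/XBP1s targets.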

Additional observations from a re-analysis of the deposited data

How the results depend on the processing

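With a change of more than 1.5-fold required, the genes called with AA263, AA263yne and AA263-5 numbered 0, 4 and 3, against 10, 14 and 17. With the GC trend removed they numbered 6, 7 and 10, and of all genes with a GC value 2.47%, 3.53% and 4.97% were higher and 2.33%, 2.26% and 6.17% lower. The medians of the 36 genes were then 0.14, 0.15 and 0.13, against 0.24 with each compound. The median log2 fold change with AA263yne was 0.11 without the 5 genes of the study's IRE1/XBP1s list, against 0.24. The cause was not tested. Under the other alternatives, the counts stayed between 9 and 17, and 0 genes differed between compounds under each alternative. Removing the GC trend turned the sign of 13 values, none of them called before or after: SRP14 (-0.04), EMC1 (-0.00) and SGTA (0.10) with AA263, SRP72 (-0.10), SEC61B (-0.02), SEC61G (-0.03), EMC1 (-0.01), EMC3 (-0.01) and EMC9 (0.01) with AA263yne, and SRP14 (-0.10), EMC9 (0.13), GET4 (0.13) and SGTA (0.18) with AA263-5. Centring turned SGTA with AA263yne (-0.00). No other value of a gene against vehicle changed sign. SEC11C with AA263 and SRP19 and EMC7 with AA263yne lost their calls when adjusted over genes with a mean of at least 10 (adjusted p-values of 0.0634, 0.0543 and 0.0562), over all genes (0.0939, 0.0796 and 0.0824), and after centring (0.0703, 0.0567 and 0.0561). SPCS3 with AA263yne and CAMLG with AA263-5 lost theirs over all genes (0.0505 and 0.0514), and SRP68 with AA263-5 after centring (0.0656). No paired analysis was possible because values per sample were not used here, and for the same reason no replicate was left out in turn. The paper states a read depth per sample, but the depth of single samples was not analysed here, so the SEs limit the reading. SPCS2, with an SE of 0.24, could have changed by more than 1.5-fold without a call.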
